A study of Mus musculus with 8 samples.

Results

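Potassium, sodium and pacemaker channel subunits were followed in mouse hearts after doxorubicin (DOX), a chemotherapy drug of the anthracycline class known for damage to heart muscle. The members were all probe sets, the groups of short oligonucleotides that each report 1 transcript on an Affymetrix array, whose single annotated gene symbol began with Kcn, or with Scn or Hcn followed by a digit. There were 199 such probe sets of 45037, and they stood for 97 genes. Of these, 93 probe sets for 62 genes were expressed, meaning that their signal was at or above the array median on at least 2 of the 8 arrays, and only these were tested. The other 106 probe sets were dim, and 35 genes had no expressed probe set. Kcnq1ot1, Kcnmb4os1 and Kcnmb4os2 were taken in by their symbols, although they are not channel subunits. Kcnq1ot1 is a long noncoding RNA, and Kcnmb4os1 and Kcnmb4os2 had no expressed probe set.

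Hearts came from male mice aged 6 to 8 weeks, of 2 genotypes: labelled null for metallothioneins I and II (MT-/-), or wild type for them (MT+/+). Each mouse received a single DOX injection of 15 mg/kg or the same volume of saline, and hearts were collected on day 4. The 4 groups, each with 2 biological replicates, were MT-/- with DOX, MT-/- with saline, MT+/+ with DOX and MT+/+ with saline. The sources used here do not say how the null alleles were made, which strain was used or how many mice stand behind 1 array, so a p-value covers only the spread between these arrays.

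The label MT-/- was checked with the targeted genes. The deposited signal of the brighter Mt1 probe set was 12500 and 12800 on the arrays labelled MT-/- DOX, 4670 and 5320 on those labelled MT-/- saline, 6730 and 9280 on MT+/+ DOX arrays, and 3720 and 4030 on MT+/+ saline arrays. Mt2 read 2220 and 2210 on MT-/- DOX arrays, 968 and 1020 on MT-/- saline arrays, 1210 and 2730 on MT+/+ DOX arrays, and 452 and 485 on MT+/+ saline arrays. Averaged over treatments, the brighter Mt1 probe set was called higher on arrays labelled MT-/- (0.50, limma adjusted p 0.0425). Mt2 had a genotype difference of 0.58 (adjusted p 0.301), and a dimmer Mt1 probe set had -0.09 (adjusted p 0.784). Neither gene was called lower on the arrays labelled MT-/-, so this signal does not bear the label out, and protein was not measured. Every genotype difference given here is therefore a difference between arrays with these labels. Summed ventricular markers (Myl2, Irx4, Myl3 and Hey2) read between 15.12 and 15.19 on a log2 scale on all 8 arrays.

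Channels of these families set the electrical cycle of the heart. Sodium channels start the action potential, potassium channels shape its plateau, end it and hold the resting potential, and pacemaker (HCN) channels carry the current that starts the beat in pacemaker tissue. Most are built from pore-forming subunits that carry the current and smaller partners that set how many channels reach the membrane and how they open. In mouse ventricle the rapid transient outward current, made by Kv4 channels (Kcnd2 and Kcnd3) with KChIP2 (Kcnip2), is a main force of repolarization.

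The 250 bases before the annotated start are shown for Kcnj3, Kcnd2 and Scn4b, for which RefSeq promoters were at hand. Kcnj3 and Scn4b each had a called probe set below, while Kcnd2 was called only with the replicate number as a block in the fit. The sequences are from RefSeq, build GRCm38.p6, plus strand: Kcnj3 at chr2:55435720-55435969, Kcnd2 at chr6:21215096-21215345 and Scn4b at chr9:45138374-45138623. Capitals mark exact matches to 1 of 5 motifs searched on both strands: the TATA box TATAAA, the CCAAT box CCAAT, the GC box GGGCGG, the steroid receptor core AGAACA and the Iroquois factor motif ACANNTGT, so that ATTGG and TGTTCT are matches on the opposite strand.
Kcnj3: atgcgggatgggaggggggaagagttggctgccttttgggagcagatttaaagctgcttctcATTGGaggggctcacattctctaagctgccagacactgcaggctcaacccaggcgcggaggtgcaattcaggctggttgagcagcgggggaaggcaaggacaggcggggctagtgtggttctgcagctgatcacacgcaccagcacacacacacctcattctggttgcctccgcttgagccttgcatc
Kcnd2: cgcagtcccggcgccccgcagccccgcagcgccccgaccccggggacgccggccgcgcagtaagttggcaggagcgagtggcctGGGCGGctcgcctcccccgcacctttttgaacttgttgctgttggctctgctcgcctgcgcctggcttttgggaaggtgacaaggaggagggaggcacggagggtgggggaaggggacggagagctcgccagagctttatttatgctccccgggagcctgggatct
Scn4b: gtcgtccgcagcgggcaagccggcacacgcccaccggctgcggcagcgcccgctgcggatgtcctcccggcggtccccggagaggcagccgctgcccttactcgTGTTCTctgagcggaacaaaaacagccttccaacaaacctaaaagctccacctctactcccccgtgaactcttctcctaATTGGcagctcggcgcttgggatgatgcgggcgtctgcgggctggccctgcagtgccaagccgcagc
Position -1 is the base just before the annotated start. The Kcnj3 window held CCAAT at position -188, the Kcnd2 window GGGCGG at -166, and the Scn4b window CCAAT at -67 and AGAACA at -146. Among 32851 windows of this length, 12.4% held TATAAA, 33.8% CCAAT, 32.7% GGGCGG, 16.1% AGAACA and 6.31% ACANNTGT. Each match is only a description of these letters, and 47 of the 62 expressed member genes had such a window.

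Which channel genes respond to DOX was asked first, with both genotypes averaged. Few did: 2 of the 93 expressed probe sets passed adjusted p 0.05 (limma with Benjamini-Hochberg adjustment over all 24751 probe sets tested), where 13.9% of all probe sets passed. One was a probe set of Kcnj3, which fell, and the other was a probe set of Kcnt1, which rose. No gene passed by its brightest probe set (0 of 62, against 14.8% of 13008 genes), and 6 of the 62 had an unadjusted p under 0.05, against 28.8% of all genes. With the replicate number as a block in the fit, 10 of the 93 passed, against 27.1% of all probe sets.

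The channel probe sets changed little in size as well. The median size of their log2 change after DOX was 0.10, against 0.13 over all probe sets. A change of more than 0.5 was seen in 2 of 93 (2.15%), against 9.08% of all, and none exceeded 1, which 428 probe sets (1.73%) did. There were 38 positive and 55 negative values, with a median of -0.04. For 91 of the 93 the 95% interval of the change lay wholly within 1 log2 unit of 0, and the exceptions were Kcnj3 1455374_at and Kcnq1ot1 1441588_at. Channel probe sets were dimmer than most, with a median level of 6.91 against 7.48. Among probe sets above the median level of all those tested, 19.8% passed and 0 of 22 channel probe sets did, and among those below it 7.93% passed and 2 of 71 did.

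**Figure D1:**
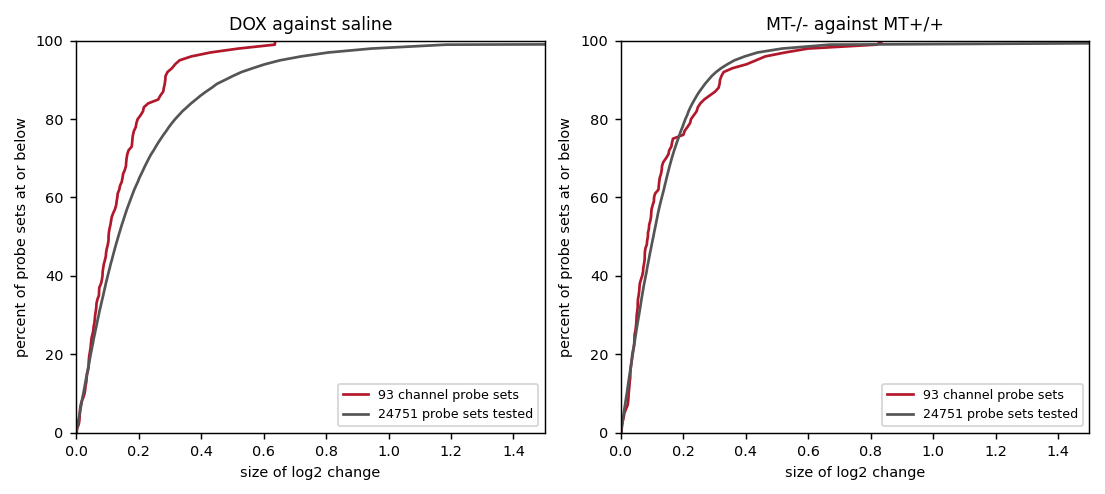
Share of probe sets (vertical axis, percent) whose log2 change was at or below a given size (horizontal axis), for DOX against saline on the left and MT-/- against MT+/+ on the right. The red line is the 93 channel probe sets and the grey line all 24751 tested: after DOX the channel line lies above the grey one for the larger changes, while for genotype the lines run close together.

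Kcnj3 encodes Kir3.1, a subunit of the acetylcholine-gated potassium channel through which the vagus nerve slows the atria and the sinus node. Its probe set 1444025_at read 6.64 and 6.46 log2 on MT-/- DOX arrays, 7.15 and 7.28 on MT-/- saline arrays, 6.72 and 6.76 on MT+/+ DOX arrays, and 7.34 and 7.37 on MT+/+ saline arrays. All 4 DOX arrays were below all 4 saline arrays. The change was -0.64 ± 0.08 (standard error from the fit on 2 arrays a group, 1.56-fold lower with DOX, adjusted p 0.00204), and this call held when any 1 array was left out. It was also called in each genotype: -0.66 ± 0.12 in MT-/- (1.58-fold, adjusted p 0.0145) and -0.61 ± 0.12 in MT+/+ (1.53-fold, adjusted p 0.0356). Leaving out 1 array ended the MT-/- call for 3 of the 8 arrays (adjusted p 0.0708 to 0.119) and the MT+/+ call for 6 (0.0693 to 0.159).

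The 4 expressed Kcnj3 probe sets did not move alike. The brightest, 1455374_at, read 8.25 and 8.65 on MT-/- DOX arrays, 8.77 and 9.67 on MT-/- saline arrays, 8.45 and 8.98 on MT+/+ DOX arrays, and 8.91 and 9.52 on MT+/+ saline arrays. Its groups overlapped, and replicate 2 was higher than replicate 1 in every group, and its change was -0.64 ± 0.23 (adjusted p 0.114, or 0.00139 with the replicate block). Within replicate numbers its DOX array was lower in 4 of 4 pairs. Probe sets 1421468_at and 1444336_at had -0.07 (adjusted p 0.688) and 0.06 (adjusted p 0.777). Which transcripts each probe set detects was not tested.

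Cell type markers were set beside Kcnj3. Summed cardiomyocyte markers read 16.39 to 16.51 on DOX arrays and 16.55 to 16.58 on saline arrays, and 4 of the 7 (Myh6, Tnni3, Actc1 and Ryr2) fell. With the block, 2 of the 7 were called higher. Among all genes, 14.8% were called after DOX without the block. None of the 7 atrial markers was called, and with the block Dkk3 was lower (-0.33, adjusted p 0.0640, or 0.0238 with it). Myl7, the atrial myosin light chain, read 5.94 and 6.82 on MT-/- DOX arrays, 6.24 and 7.83 on MT-/- saline arrays, 6.04 and 7.56 on MT+/+ DOX arrays, and 8.39 and 6.64 on MT+/+ saline arrays. DOX and saline arrays overlapped for Myl7. Markers of other cell types also fell: 5 of 8 fibroblast markers (median -1.41), 6 of 7 macrophage markers (median -0.70), 3 of 7 endothelial markers (median -0.22) and 1 of 3 tested red cell markers (-3.91 at the lowest). With the block, 1 fibroblast marker and 1 endothelial marker were called higher. The part of these markers in the channel values was not tested. Fewer cells of a type and less RNA per cell cannot be told apart in whole hearts.

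The other G-protein-gated subunits were not called. Kcnj5, which encodes Kir3.4, the partner of Kir3.1 in the atrial channel, had 0.10 (95% interval -0.22 to 0.42, adjusted p 0.733), and neither Kcnj6 nor Kcnj9 passed. The median change of the 4 genes was 0.10 with Kcnj3 at its brightest probe set.

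**Figure D2:**
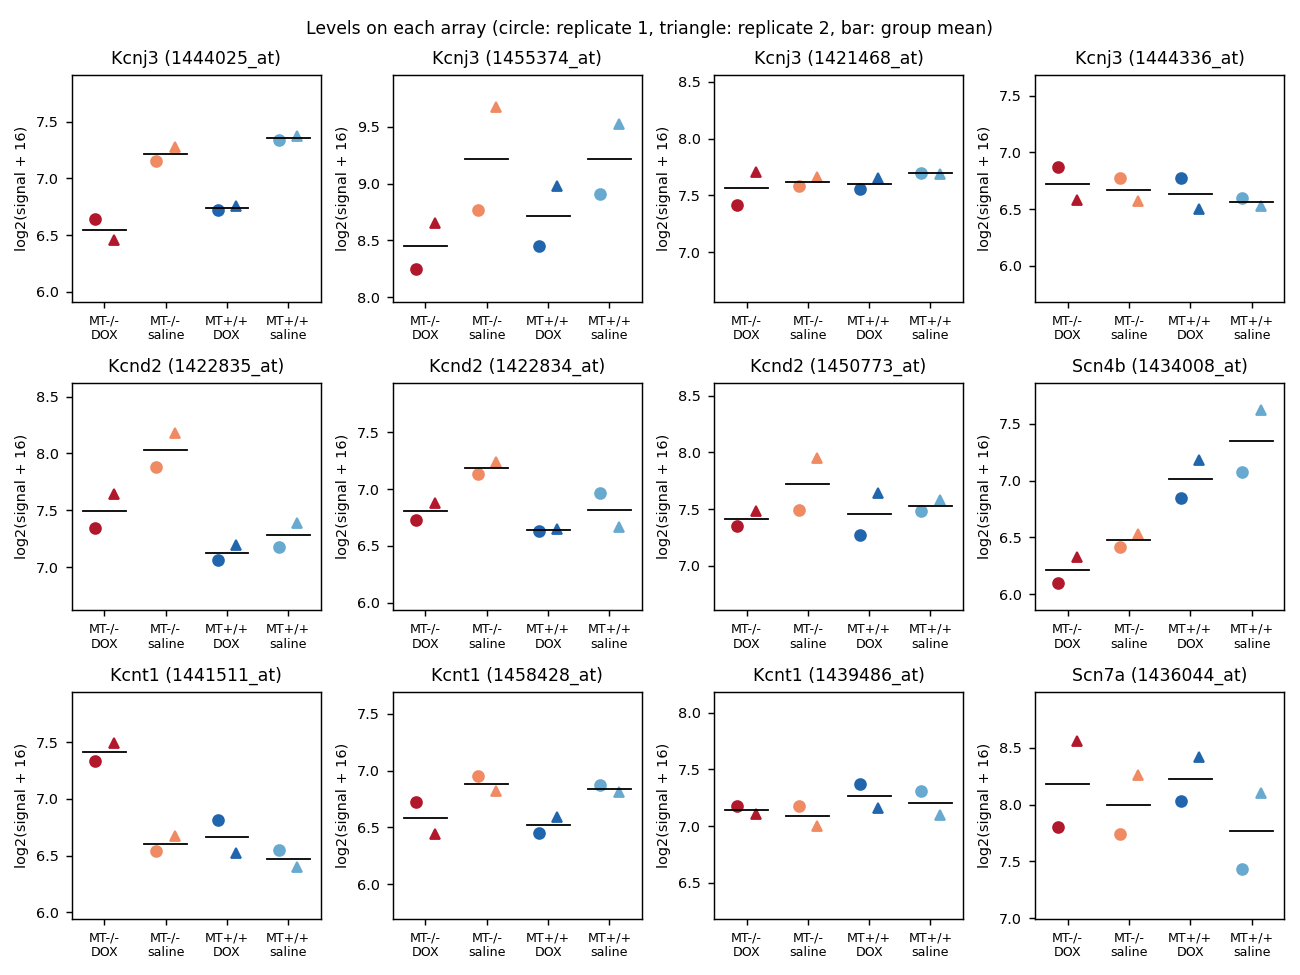
Levels, log2(signal + 16), of 12 probe sets on each of the 8 arrays, by group (MT-/- DOX, MT-/- saline, MT+/+ DOX, MT+/+ saline from left to right); circles are replicate 1, triangles replicate 2 and bars group means, and each panel spans 2 log2 units. DOX arrays lie below saline arrays for Kcnj3 1444025_at, MT-/- arrays lie below MT+/+ arrays for Scn4b, and Kcnt1 1441511_at is highest on the MT-/- DOX arrays.

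Kcnt1, a potassium channel opened by internal sodium, gave the only rise, and only in 1 of its 3 expressed probe sets. Probe set 1441511_at read 7.33 and 7.49 on MT-/- DOX arrays, 6.54 and 6.67 on MT-/- saline arrays, 6.81 and 6.52 on MT+/+ DOX arrays, and 6.55 and 6.40 on MT+/+ saline arrays. Both MT-/- DOX arrays stood above the other 6. The change was 0.50 ± 0.10 averaged (1.41-fold, adjusted p 0.0123), and the call was lost without MT-/- saline replicate 1 (adjusted p 0.0545). In MT-/- alone it was 0.80 ± 0.14 (1.75-fold, adjusted p 0.0135), a call that leaving out either MT-/- saline array or 1 MT-/- DOX array ended (0.0667 to 0.107).

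The other Kcnt1 probe sets did not follow. Probe set 1458428_at read 6.72 and 6.44 on MT-/- DOX arrays, 6.95 and 6.82 on MT-/- saline arrays, 6.45 and 6.59 on MT+/+ DOX arrays, and 6.87 and 6.81 on MT+/+ saline arrays, lower on every DOX array than on any saline array. Its change was -0.32 ± 0.09 (adjusted p 0.0607, or 0.0213 with the block). The brightest, 1439486_at, had 0.06 (adjusted p 0.775). With opposite signs inside 1 gene, these values give no direction for Kcnt1 as a whole.

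The transient outward channel genes were little changed by their brightest probe sets, with none of 5 called and a median of -0.08. Kcnd3, which encodes the pore subunit Kv4.3, had 0.13 (95% interval -0.06 to 0.32, adjusted p 0.386). Kcna4, the pore subunit of the slower transient outward current, had 0.03 (-0.26 to 0.32, adjusted p 0.922). Kcnip2, the KChIP2 partner that carries Kv4 channels to the membrane, read 10.56 and 10.69 on MT-/- DOX arrays, 10.55 and 10.78 on MT-/- saline arrays, 10.36 and 10.56 on MT+/+ DOX arrays, and 10.48 and 10.71 on MT+/+ saline arrays. DOX and saline arrays overlapped in both genotypes, and the change was -0.08 (-0.32 to 0.15, adjusted p 0.683). Its further probe sets had -0.12 and 0.04.

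Kcnd2, which encodes Kv4.2, differed with both treatment and genotype in 1 probe set once the replicate number was a block. Probe set 1422835_at read 7.34 and 7.64 on MT-/- DOX arrays, 7.88 and 8.18 on MT-/- saline arrays, 7.06 and 7.19 on MT+/+ DOX arrays, and 7.18 and 7.39 on MT+/+ saline arrays. The 2 MT-/- saline arrays were the highest, and DOX was lower in 4 of 4 pairs of the same number. The DOX change was -0.35 ± 0.11 (adjusted p 0.0744, or 0.00536 with the block), and in MT-/- it was -0.54 (adjusted p 0.0872, or 0.00612 with the block). Probe set 1422834_at had -0.28 (0.0924, or 0.0436 with the block), while the brightest, 1450773_at, had -0.19 (adjusted p 0.391).

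The delayed rectifiers, which end the action potential, and the channels that hold the resting potential were not called either. Kcna5, which encodes Kv1.5 of the ultrarapid delayed rectifier, had -0.18 (-0.46 to 0.10, adjusted p 0.408). Kcnq1, the pore of the slow delayed rectifier, had -0.26 (-0.60 to 0.08, adjusted p 0.315), and its partner Kcne1 had 0.10 (-0.10 to 0.30, adjusted p 0.522) by the brighter and -0.18 by the dimmer probe set. Kcnh2, the pore of the rapid delayed rectifier, had -0.05 (-0.38 to 0.27, adjusted p 0.871). The 6 tested ventricular delayed rectifier genes had a median of 0.01, and the 5 tested genes of the rapid and slow components a median of -0.06.

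Inward rectifiers hold the resting potential, and ATP-sensitive channels couple it to the energy state. Kcnj12 (Kir2.2) had 0.05 (-0.16 to 0.25, adjusted p 0.806). Kcnj2, the main inward rectifier of ventricle, was dim, between percentiles 17.1 and 26.6 of its arrays, and was not tested. Kcnj11 (Kir6.2), the ATP-sensitive pore of heart muscle, had 0.06 (-0.13 to 0.24, adjusted p 0.716). Kcnj8 (Kir6.1), the ATP-sensitive pore of vessel walls, read 9.45 and 9.45 on MT-/- DOX arrays, 9.64 and 9.99 on MT-/- saline arrays, 9.62 and 9.40 on MT+/+ DOX arrays, and 9.73 and 9.69 on MT+/+ saline arrays. Every DOX array was below every saline array for Kcnj8, but its change of -0.28 (-0.53 to -0.03) did not pass (adjusted p 0.136). Of the 7 tested smooth muscle and pericyte markers, 2 fell, and their summed level was 13.17 to 13.48 on DOX arrays and 13.61 to 13.91 on saline arrays. Their part in the Kcnj8 values was not tested.

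Background channels, which leak potassium at rest, and the silent Kv subunits, which modify Kv2 channels, made up much of the remainder. Kcnk3 (TASK-1), a background channel, had -0.18 (-0.48 to 0.12, adjusted p 0.455), and the 5 tested genes of its family had a median of -0.13. Kcns1, a silent subunit, was lower with DOX only with the block (-0.29, adjusted p 0.0797, or 0.0330 with it). Kcnh3, an EAG-type channel best known from brain, was higher only with the block (0.29, adjusted p 0.0814, or 0.0250 with it), and its other expressed probe sets had 0.05 and -0.10.

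Sodium and pacemaker channel genes were not called for DOX without the block. Scn4b, the beta-4 subunit that modulates sodium channels, had -0.30 ± 0.14 (-0.61 to 0.02, adjusted p 0.207, or 0.0288 with the block) and was lower in 4 of 4 pairs. Scn7a, the atypical pore subunit that senses sodium outside the cell, was higher in 1 of its 3 expressed probe sets only with the block: 1436044_at had 0.32 (adjusted p 0.415, or 0.0211 with it), and 1436043_at and 1427495_at had 0.28 and 0.21. Hcn2, a pacemaker channel that is also present in ventricle, had -0.08 (-0.29 to 0.12, adjusted p 0.622), and Hcn3 had -0.05 (adjusted p 0.755).

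**Figure D3:**
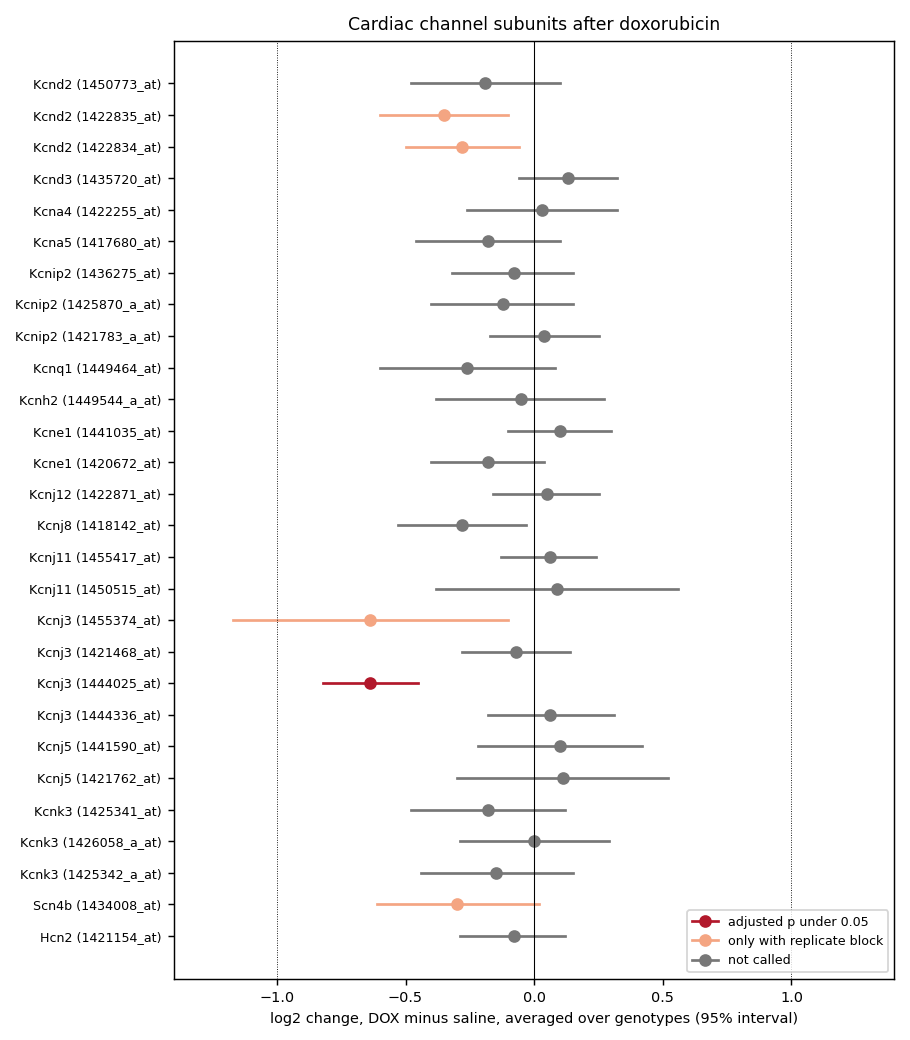
Log2 change after DOX, DOX minus saline averaged over genotypes (horizontal axis), with its 95% interval, for every expressed probe set of a fixed list of cardiac channel genes. Kcnj3 1444025_at (red) passed adjusted p 0.05, 4 probe sets in orange (2 of Kcnd2, 1 each of Kcnj3 and Scn4b) passed only with the replicate block, and the others did not pass.

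Seen in each genotype alone, the channel calls were again few. In MT-/- hearts DOX changed 2 of the 93 probe sets, against 6.21% of all, and with the block 4, against 16.9%. In MT+/+ hearts it changed 1, against 2.48% of all, and with the block 3, against 11.1%. These block calls added Kcnj3 1455374_at in both genotypes, Kcnd2 1422835_at in MT-/- and Scn7a 1436044_at in MT+/+ (0.46, adjusted p 0.534, or 0.0396 with the block).

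Whether DOX acted differently in the 2 genotypes was tested as the interaction (the DOX change of MT-/- minus the DOX change of MT+/+). No member passed, and 0% of all 24751 probe sets did. With limma 4 of the 93 had an unadjusted p under 0.05 (4.30%, against 2.32% of all). The smallest p-values were those of Kcnt1 1441511_at (0.62, p 0.0126), Kcnh2 (-0.84, p 0.0179) and Scn3b, the beta-3 sodium channel subunit (0.61, p 0.0272), each with an adjusted p of 1.

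Kcnh2 read 8.54 and 8.23 on MT-/- DOX arrays, 8.58 and 9.14 on MT-/- saline arrays, 8.66 and 8.76 on MT+/+ DOX arrays, and 8.25 and 8.44 on MT+/+ saline arrays. Within replicate numbers its DOX array differed by -0.03 and -0.91 in MT-/-, so that 1 pair hardly changed, and by 0.41 and 0.32 in MT+/+. Neither genotype was called for Kcnh2. Its change was -0.47 in MT-/- (adjusted p 0.235) and 0.37 in MT+/+ (adjusted p 0.429).

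**Figure D4:**
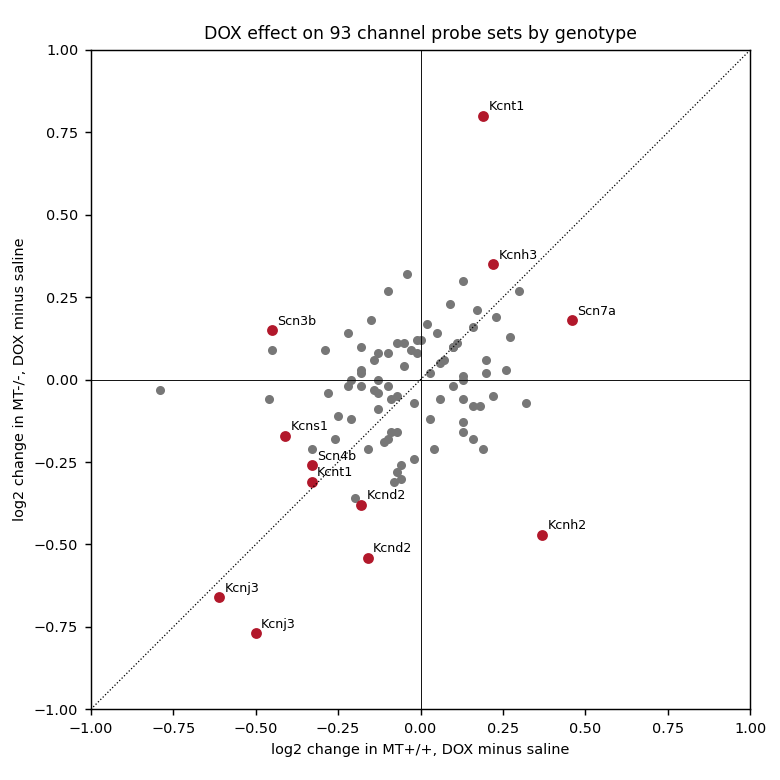
Log2 change after DOX in MT-/- (vertical axis) against that in MT+/+ (horizontal axis) for the 93 expressed channel probe sets, with a dotted line of equal change; red points with names passed for DOX averaged with the replicate block or had the 3 smallest interaction p-values. Both Kcnj3 points are negative in both genotypes, Kcnt1 1441511_at is at 0.80 in MT-/-, and Kcnh2 is negative in MT-/- and positive in MT+/+.

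The remaining question was how the arrays labelled MT-/- and MT+/+ differ. Averaged over treatments, 1 of the 93 probe sets passed, Scn4b, against 0.905% of all probe sets, and by genes this was 1 of 62, against 0.884%. With the block 6 passed, against 4.86%. With limma and no adjustment, 17 of the 93 had p under 0.05 (18.3%, against 13% of all). By genes this was 12 of 62, against 13.2%. A change of more than 0.5 was seen in 4 of 93 (4.30%), against 2.15% of all, and the median size was 0.09 against 0.10.

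Scn4b read 6.10 and 6.33 on MT-/- DOX arrays, 6.42 and 6.53 on MT-/- saline arrays, 6.85 and 7.18 on MT+/+ DOX arrays, and 7.08 and 7.62 on MT+/+ saline arrays. All 4 MT-/- arrays were below all 4 MT+/+ arrays. The difference was -0.84 ± 0.14 (1.79-fold lower in MT-/-, adjusted p 0.0341, or 0.000968 with the block), but the call held without only 1 of the 8 arrays in turn (MT+/+ saline replicate 1), and without any other the adjusted p was 0.0588 to 0.142. The probe set was at or above the array median on 4 arrays, the MT+/+ ones, so it entered the tests only through the genotype in which it was higher; with no such filter the adjusted p was 0.0249. The difference was -0.88 under saline (adjusted p 0.250, or 0.0124 with the block) and -0.80 under DOX (0.229, or 0.0133 with the block). Of the other beta subunits, Scn3b had -0.32 (adjusted p 0.299) and Scn2b 0.07 (adjusted p 0.931).

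Kcnd2 1422835_at lay on the other side. All 4 MT-/- arrays were above all 4 MT+/+ arrays except that MT-/- DOX replicate 1, at 7.34, was below MT+/+ saline replicate 2, at 7.39. The difference was 0.56 ± 0.11 (1.47-fold, adjusted p 0.0712, or 0.00292 with the block), and 0.75 under saline (adjusted p 0.211, or 0.00945 with the block). Its probe sets 1422834_at and 1450773_at had 0.26 (adjusted p 0.302) and 0.08 (adjusted p 0.850), neither called with the block.

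The other block calls for genotype were Kcnt1 1441511_at (0.44, adjusted p 0.105, or 0.0307 with the block), Kcnt2, a relative of Kcnt1 (0.52, 0.302, or 0.0136, and tested only because 2 MT-/- arrays reached the array median), Kcna1 1437230_at, which encodes Kv1.1 (-0.32, 0.367, or 0.0405), and Kcnd1 1455514_at, which encodes Kv4.1 (-0.38, 0.471, or 0.0473). The brightest Kcna1 probe set, 1417416_at, had -0.09 (adjusted p 0.857), and Kcnd1 1421538_at had 0 (adjusted p 0.992), neither called with the block. The brightest Kcnt1 probe set, 1439486_at, was lower on the MT-/- array of each same-numbered pair (-0.13 and -0.10 under saline, -0.19 and -0.06 under DOX). Kcnt1 1458428_at had 0.08 and 0 under saline, and 0.27 and -0.15 under DOX. Under saline alone no member passed without the block and 2 did with it, Kcnd2 and Scn4b, against 0.186% and 0.844% of all probe sets. Under DOX alone the counts were also 0 and 2, there Kcnt1 1441511_at (0.74, adjusted p 0.107, or 0.0254 with the block) and Scn4b, against 0.283% and 1.55%. With limma and no adjustment, 9 of the 93 had p under 0.05 under saline (9.68%, against 8.62% of all) and 5 under DOX (5.38%, against 7.39%).

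Atrial markers were read beside these genotype values. Of the 7, only Nppa, the atrial natriuretic peptide, was called, at 1.20 (adjusted p 0.0198). The 7 ranged from -0.62 to 1.20, with a median of -0.05. Their sum is of linear signal, so the brightest markers weigh most in it. The summed level was 12.48 and 12.99 on MT-/- DOX arrays, 12.33 and 12.47 on MT-/- saline arrays, 11.96 and 11.78 on MT+/+ DOX arrays, and 11.94 and 11.34 on MT+/+ saline arrays. Their part in the Scn4b and Kcnd2 values was not tested.

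Genes that work with these channels were read after DOX from a list of known partners. Of 16 tested partners, 3 were higher and 2 lower (5 and 4 with the block), with a median of 0.03, where 14.8% of all genes passed without the block: Fgf13, which binds sodium channels, had 0.53 (adjusted p 0.0217), Gpd1l, which affects sodium channel trafficking, had 0.37 (0.0315), and the scaffold ankyrin-G, Ank3, had 0.49 (0.0350). The fallers were Rangrf (MOG1), which helps sodium channels reach the membrane, at -0.84 ± 0.09 (adjusted p 0.00083), and Tmem65, a protein of the intercalated disc, at -0.65 (0.00646). Rangrf read 8.83 and 8.82 on MT-/- DOX arrays, 10.01 and 9.90 on MT-/- saline arrays, 9.42 and 9.34 on MT+/+ DOX arrays, and 9.98 and 9.88 on MT+/+ saline arrays, so that DOX and saline arrays did not overlap. None of 3 tested gap junction genes and none of 3 tested ion pump and exchanger genes was called. With the block Gja1, the main ventricular connexin, was lower (-0.42, adjusted p 0.0568, or 0.0268 with it), as was Fxyd1, phospholemman, which regulates the sodium pump (-0.20, adjusted p 0.0823, or 0.0183).

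Transcription factors known to set channel expression were also read. Of 10 tested, 2 rose after DOX, where 14.8% of all genes passed without the block. With the block 4 rose, which added Irx3 and Hey2. The 2 were Klf15, known to drive Kcnip2 in mouse heart, by 1.51 ± 0.26 (2.84-fold, adjusted p 0.0067), and Tbx5 by 0.49 (adjusted p 0.0295). Kcnip2 was not called beside it. For genotype 1 of the 10 was called, against 0.884% of all genes: Irx3, an Iroquois factor of the conduction system, was lower on MT-/- arrays by -1.12 ± 0.14 (2.17-fold, adjusted p 0.0121). With the block 2 of the 10 were called lower and 1 higher. Irx5, known to repress Kcnd2 in mouse ventricle, read 6.90 and 7.09 on MT-/- DOX arrays, 6.77 and 7.12 on MT-/- saline arrays, 7.96 and 7.45 on MT+/+ DOX arrays, and 7.51 and 7.62 on MT+/+ saline arrays. All 4 MT-/- arrays were below all 4 MT+/+ arrays, at -0.66 (adjusted p 0.0712, or 0.0222 with the block), and no link between Irx5 and Kcnd2 was tested.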

How the data were processed

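RNA from 8 heart samples (4 groups of 2) was hybridised to 1-colour Affymetrix arrays, from 2 µg of total RNA per the labels' protocols. Each deposited value is a linear intensity made by the authors with GCOS 1.4 per the submitters' processing notes; no algorithm or scaling target is stated. Of 45101 probe sets, 64 controls were left out. Trimmed array means (2% from each end) differed by 8.06%, above a limit of 5%, so arrays were quantile-normalized. That limit was set with the difference already known from earlier results of these data. Levels are log2(intensity + 16), which understates changes of dim probe sets, and a brighter probe set does not show a more abundant transcript. Gene names came from the platform annotation.

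limma 3.58.1 in R 4.3.3 was fitted on 4 group means over all arrays, with eBayes and a mean-variance trend (4 residual degrees of freedom, prior 4.66). Tests were two-sided, the threshold was adjusted p 0.05, and 7 comparisons were made. The script was tested on simulated data.

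The labels give each group replicates 1 and 2 without saying what a number shares. Deviations of same-numbered arrays from their group means correlated at 0.36 to 0.542 over all probe sets in all 6 pairs of groups. Over the channel probe sets alone, the correlation was -0.0155 for MT-/- DOX with MT-/- saline. It was 0.274 to 0.667 for the other pairs of groups. A fit with the number as a block stands beside each result whose call it changes. This pairing comes from the data and not from a stated batch. Counts of same-numbered pairs rest on the same pairing and are not separate evidence.

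The brightest expressed probe set stood for a gene, and others are given where they differ in sign or call. Named were every called member, a set of cardiac genes for DOX averaged, the 3 smallest p where none passed, and up to 4 called genes of each list of other genes. Members named outside this rule, such as Irx5, were chosen after their values were seen. The members, the lists and the rule were chosen with earlier results of these data known. The number of arrays limits the precision. Some channel genes are not reported here.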

Additional observations from a re-analysis of the deposited data

Results flagged for a closer look

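Scn3a, a sodium channel pore subunit best known from neurons, had 1 dim probe set (1439204_at) outside the tests, with a higher level after DOX than in the saline controls. It read 5.44 and 5.27 log2 on MT-/- DOX arrays, 4.91 and 4.83 on MT-/- saline arrays, 5.14 and 5.13 on MT+/+ DOX arrays, and 4.80 and 4.94 on MT+/+ saline arrays, and lay between percentiles 1.71 and 10.6 of its arrays. In the limma fit without the filter on dim probe sets its change was 0.37 ± 0.09 (adjusted p 0.0279), higher with DOX on all 4 DOX arrays. Groups of 2 arrays were too small for a test of single arrays that stand apart.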

How the results depend on the processing

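The count of members called after DOX was 2 (against 3433 of all 24751 probe sets) and was 4 with no filter on dim probe sets (against 3193 of 45037). It was 0 with the filter at the median on all 8 arrays, which leaves out Kcnj3 1444025_at and Kcnt1 1441511_at (against 3037 of all probe sets). It was 10 with the replicate block (against 6702 of 24751). Leaving out 1 array gave 2 to 3. The stricter filter also gave 0 for DOX within each genotype and for genotype averaged. The block gave 4 for DOX within MT-/-, 3 within MT+/+, 6 for genotype averaged and 2 each for genotype under saline and under DOX. Fitting only the compared groups gave 0 for DOX in MT+/+, where Kcnj3 1444025_at had an adjusted p of 0.0662. Leaving out 1 array gave 0 to 2 for DOX within MT-/-, 0 to 1 within MT+/+, 0 to 1 for genotype averaged, and 0 for the other 3 comparisons. In MT-/- the Kcnj3 call was lost without MT-/- saline 1 (0.0708), saline 2 (0.119) or DOX 2 (0.106), and in MT+/+ without any 1 MT+/+ array (0.149 to 0.159) or either MT-/- saline array (0.0693 and 0.0694). The Kcnt1 call in MT-/- was also lost without 3 of the 8 arrays (adjusted p up to 0.107). With the mean over a gene's probe sets in place of the brightest, Kcnj3 passed after DOX (-0.32, adjusted p 0.0269), 1 of 62 genes. Signs turned only for changes near 0: Kcna4 to -0.07, -0.04, -0.01 and -0.05 and Kcnh2 to 0.09 and 0.03 with 1 array left out (ranges -0.07 to 0.13 and -0.19 to 0.09), Kcnj5 to -0.01 without either of 2 arrays (range -0.01 to 0.20) and Kcne1 to -0.04 with the mean over probe sets. The cause of these shifts was not tested. Dim probe sets hold values close to background, so the size of a change there need not be that of the change in RNA.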

Other observations

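A further dim probe set passed in the limma fit without the filter: Kcnj15 1435354_at, which encodes the inward rectifier Kir4.2, at -0.45 ± 0.08 after DOX (adjusted p 0.00984), with 5.81 and 5.70 log2 on MT-/- DOX arrays, 6.30 and 6.28 on MT-/- saline arrays, 5.85 and 5.84 on MT+/+ DOX arrays, and 6.08 and 6.31 on MT+/+ saline arrays. All 4 DOX arrays were below all 4 saline arrays. Kcnq1ot1 1441588_at, of the noncoding RNA antisense to Kcnq1, had the widest spread between replicates among the probe sets named here, with 7.17 and 5.10 on MT-/- DOX arrays, 5.38 and 6.94 on MT-/- saline arrays, 4.97 and 4.91 on MT+/+ DOX arrays, and 5.50 and 5.94 on MT+/+ saline arrays.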
